A study of Mus musculus with 16 samples.

Results

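Aim2 (ENSMUSG00000037860), a cytosolic DNA sensor gene, was described here with 7 related genes of the mouse: the neighbouring Ifi200 genes Ifi203, Ifi204, Mndal and Pyhin1, and the inflammasome genes Casp1, Pycard and Nlrp3. The 8 genes were found by symbol, and all 8 were among the 45706 genes of the count table. Aim2 was picked because its difference between genotypes was unequal in ribosome pulldown and in whole tissue in these same libraries. Its values in every comparison are therefore a description, with no test, and only the other 7 genes were tested.

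The study measured RNA from mouse hypothalamus, either all RNA of the lysate (input) or RNA bound to ribosomes of cells that had expressed Cre from Pnoc, the prepronociceptin gene. In such cells the ROSA-STOP-L10a-bactrap allele gives a GFP-tagged ribosomal protein L10a, and anti-GFP antibodies pull down the tagged ribosomes. There were 16 libraries in 4 groups of 4: control (Lepr-flox) input and pulldown from pools 1 to 4, and Pnoc Lepr deletion input and pulldown from pools 5 to 8. Each pool held 4 animals on a C57Bl/6N background, random fed on chow and labelled as 12 weeks old in one protocol and 10 to 12 weeks in another. Control animals carried the floxed allele of Lepr, the leptin receptor gene, and the labels do not state which of them carried Cre. A Cre driver marks every cell that ever expressed it, and a pulldown holds some RNA from untagged cells.

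Library totals lay between 64435888 and 78623579 estimated counts, so 3 counts were worth 0.0469 to 0.0562 CPM in input and 0.032 to 0.0395 CPM in pulldown, where CPM is the count relative to the library size after TMM scaling. Pnoc was higher in pulldown than in input by 1.68 on the log2 scale in both genotypes, and all 8 neuron and GABAergic markers were higher there too. Lepr was 1.62 ± 0.185 CPM in control and 2.62 ± 0.171 CPM in deletion pulldown, and 4.29 ± 0.695 and 6.03 ± 1.48 CPM in the inputs (SD, n = 4 each). Gene totals include exons outside a deleted part and so do not check the deletion, and "deletion" below means libraries labelled so. Each pool held its own animals and gave 1 input and 1 pulldown library, and fewer cells of a type cannot be told apart from less RNA per cell.

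AIM2 binds double-stranded DNA in the cytosol through its HIN domain and recruits PYCARD (ASC) through its pyrin domain. PYCARD in turn brings in caspase-1, encoded by Casp1, which cleaves the precursors of the cytokines IL-1β and IL-18 and the pore-forming protein gasdermin D. NLRP3 builds the same kind of complex in response to other signs of cell damage. In brain these complexes are best known from microglia, and AIM2 has also been described in neurons. The Ifi200 genes, also called PYHIN genes, form a cluster of related genes on mouse chromosome 1, and many of them respond to interferon.

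Aim2 spans chr1:173349547-173466040 in RefSeq's GRCm38.p6 annotation, and 4 of the other genes follow on the same chromosome. Pyhin1, now named Ifi209, lies at chr1:173630859-173647928, Ifi204 at chr1:173747293-173767069, Mndal at chr1:173857215-173880382 and Ifi203 at chr1:173920400-173942866. The inflammasome genes lie elsewhere, with Pycard at chr7:127991373-127993867, Casp1 at chr9:5298517-5307281 and Nlrp3 at chr11:59541569-59566955. The annotated span of Aim2 overlaps the 18593 bases at the upper end of Cadm3, a neuronal cell adhesion gene at chr1:173331892-173368139. The sources used here do not say whether reads were counted by strand, and reads from the shared stretch cannot then be told apart.

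RefSeq start sites were matched for 7 of the 8 genes (all but Ifi204), 10 sites in all, and the 250 bases before each were searched on both strands. The sequences are shown because the Ifi200 genes are often described as a group that interferon controls together. The core of the interferon-stimulated response element (GAAA, any 2 bases, GAAA) was found before 3 of the 10 sites, 1 of Ifi203 and both of Mndal, against 2.98% of 32851 RefSeq promoters of the same length. The neighbour Ifi207 also had it, 41 bases before its start. The STAT dimer motif TTCNNNGAA was found before none of the 10 sites, against 7.02% of all promoters. A window counted once however many matches it held, and a match is a run of letters, not a shown binding site.

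The window before the Aim2 start at chr1:173420354-173420603 (+ strand, 5′ to 3′) held neither motif. It lies 71.1 kb inside the annotated span of the gene and 52214 bases beyond the end of Cadm3, and the annotation used here does not say whether it is intronic. The window of Ifi207 at chr1:173741810-173742059 (minus strand, written 5′ to 3′ along the gene) is set beside it, with the interferon motif in capitals.
Aim2: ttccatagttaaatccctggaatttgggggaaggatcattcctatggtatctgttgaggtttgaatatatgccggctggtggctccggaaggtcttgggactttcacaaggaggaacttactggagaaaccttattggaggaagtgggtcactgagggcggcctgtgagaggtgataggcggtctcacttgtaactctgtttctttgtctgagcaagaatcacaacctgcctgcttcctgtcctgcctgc
Ifi207: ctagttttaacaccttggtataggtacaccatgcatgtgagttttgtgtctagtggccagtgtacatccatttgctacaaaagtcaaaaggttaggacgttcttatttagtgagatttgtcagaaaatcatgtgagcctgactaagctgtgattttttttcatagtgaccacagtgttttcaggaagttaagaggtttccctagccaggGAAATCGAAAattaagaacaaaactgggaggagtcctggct

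The copies of this motif near the Ifi200 start sites had the same 10 letters, GAAATCGAAA, in Ifi203, in Ifi207 and at one of the sites of Mndal. This exact copy was singled out after it was seen in Mndal, and 0.0396% of all promoters hold it. Stretches of 30 bases, each with the best match in capitals, are given 5′ to 3′ along the gene, from chr1:173880204-173880233 for Mndal, chr1:173942508-173942537 for Ifi203, chr1:173741831-173741860 for Ifi207, chr1:173630770-173630799 for Pyhin1 and chr1:173420543-173420572 for Aim2.
Mndal: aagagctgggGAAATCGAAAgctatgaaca
Ifi203: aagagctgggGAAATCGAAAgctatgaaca
Ifi207: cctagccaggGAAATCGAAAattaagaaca
Pyhin1: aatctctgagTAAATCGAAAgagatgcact
Aim2: tgtaactctgTTTCTTTGTCtgagcaagaa
The best match of Pyhin1 had 9 of the 10 letters, and 1.21% of promoters reach that. The best match of Aim2, read on the other strand, had 7 of 10, which 70.8% of promoters reach. The letters that differ in Aim2 include the middle bases, where the motif itself allows any base. These scores therefore do not rank Pyhin1 and Aim2 on the fixed letters of the motif. Mndal and Ifi203 had the same 30 bases, and over the whole windows they were identical at 89.3% of aligned positions, against 55.1% for Ifi207 and 47.4% for Aim2 when aligned with Mndal. Such close copies also matter for counting, since reads from stretches that Mndal and Ifi203 share may be assigned to either, and the values of these genes are uncertain in that respect.

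Aim2 had few reads in control pulldown and several times more in deletion pulldown. The 4 control pulldown libraries held 31, 31, 24 and 33 estimated counts (pools 1 to 4), and the 4 deletion pulldown libraries 112, 152, 133 and 117 (pools 5 to 8). In CPM these were 0.356, 0.331, 0.276 and 0.362 against 1.32, 1.64, 1.54 and 1.54. Every deletion library was above every control library, which was so for 5.1% of all genes tested in pulldown, and the gap was far wider than the spread within either group.

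Whole hypothalamus showed the same order with a smaller gap. Control inputs held 139, 98, 145 and 118 counts, or 2.44, 1.83, 2.34 and 2.02 CPM. Deletion inputs held 176, 212, 168 and 178 counts, or 3.22, 3.31, 2.84 and 2.98 CPM. The groups did not overlap here either, as for 4.05% of all genes tested in input, and the CPM of Aim2 was higher in input than in pulldown in all 8 pools.

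Group means were 0.331 ± 0.0392 and 1.51 ± 0.135 CPM in control and deletion pulldown, and 2.16 ± 0.279 and 3.09 ± 0.215 CPM in the inputs (SD, n = 4 each). The log2 fold change of deletion over control was 2.20 (SE 0.18) in pulldown, or 4.59-fold, and 0.52 (SE 0.15) in input, or 1.43-fold. Over all genes, 108 of 16859 were called in pulldown (0.641%). For a genotype difference unequal between the fractions 2 of 18530 were (0.0108%), among them Serpina3n, a serine protease inhibitor gene, at -0.98. Aim2 was picked from these contrasts, so no call is given for it and nothing is read from either share.

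Seen within each pool, the level of Aim2 in pulldown was a small part of that in input for controls and a larger part for deletion pools. Pulldown over input in CPM came to 0.146, 0.18, 0.118 and 0.179 in pools 1 to 4 and to 0.411, 0.496, 0.543 and 0.517 in pools 5 to 8. On the log2 scale Aim2 was at -2.72 (SE 0.19) in control and -1.04 (SE 0.14) in deletion pulldown relative to input. The difference of these differences was 1.67 (SE 0.21), as a description.

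**Figure D1:**
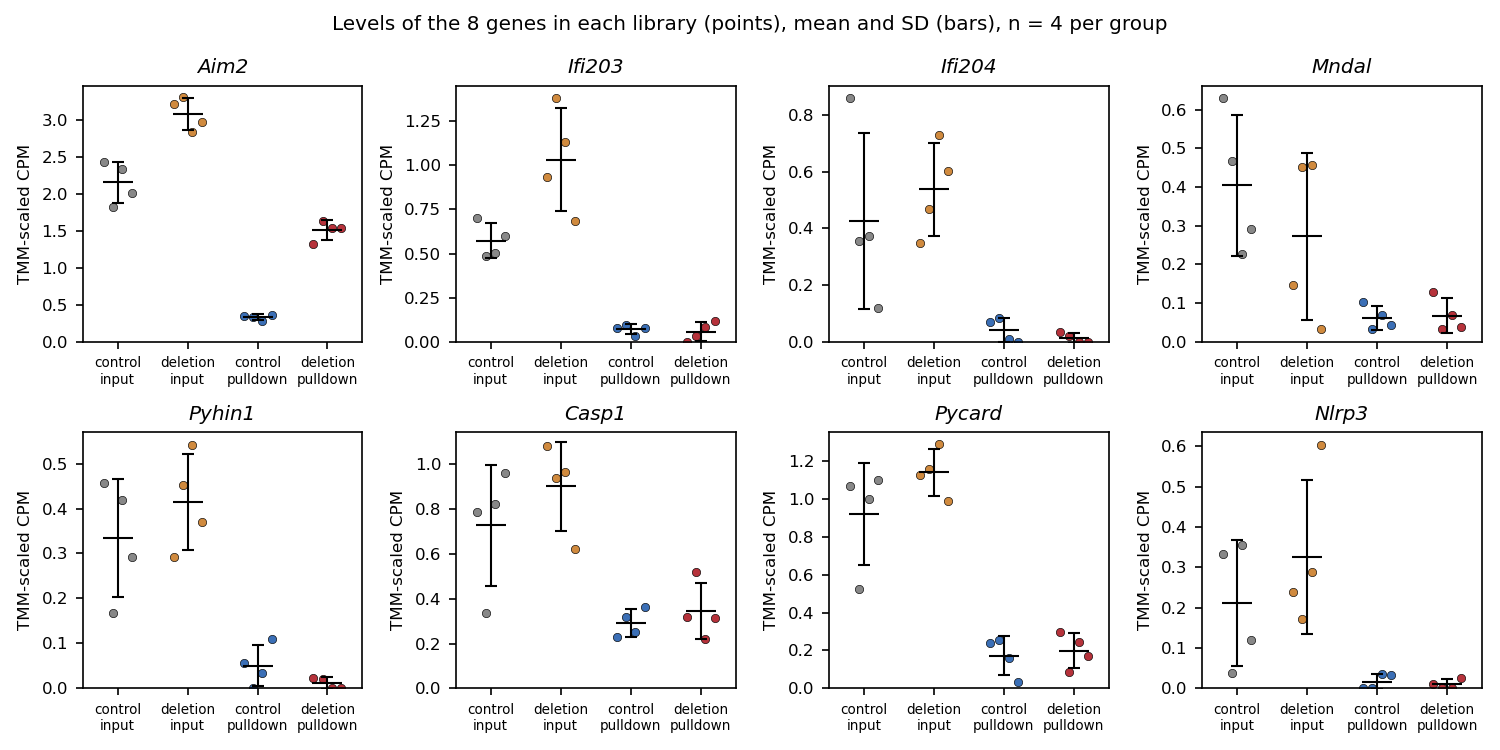
Levels of the 8 genes (y axes, TMM-scaled CPM, each panel with its own scale from 0) in the 4 groups (x axes); points are single libraries and bars the mean and SD of 4. Only for Aim2, which was picked for its pattern in these libraries, do the deletion pulldown libraries (1.32 to 1.64 CPM) stand clear of the control pulldown libraries (0.276 to 0.362 CPM). The other 7 genes overlap between genotypes in both fractions.

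The authors' deposited table gives Aim2 log2 fold changes of 2.20 for deletion over control in pulldown, 0.517 in input, -2.71 for pulldown over input in control and -1.03 in deletion. These come from the same libraries and are not independent of the values above.

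The size of the pulldown difference was less certain on the scale that corrects for transcript length. In TPM, the deposited measure of transcripts per library corrected for length, Aim2 was between 0.25 and 0.862 in control pulldown and between 1.48 and 1.85 in deletion pulldown, so the groups still did not overlap. In input, TPM ran from 1.03 to 2.38 in control and from 1.72 to 4.58 in deletion, and there the groups overlapped. In deletion pool 7 TPM was higher in pulldown (1.85) than in input (1.72), opposite to the order in CPM. The input library of deletion pool 5 alone was at 4.58 TPM, with the other 3 at 1.72 to 2.26, and that of control pulldown pool 2 at 0.862, with the other 3 at 0.25 to 0.461.

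Those libraries were unremarkable in counts. The deposited rescaled counts divide out the length that the quantification assigned to the gene in each library, and the ratio of count to rescaled count for Aim2 ran from 0.461 to 1.31 in control pulldown and from 0.59 to 1.44 in deletion input. Over all 16 libraries its highest ratio was 3.18 times its lowest, more than for 95.4% of 2635 genes with a mean of 1 to 4 CPM, whose median was 1.48. On rescaled counts the pulldown log2 fold change was 1.72, with limma on log2(TPM + 0.1) it was 1.64, and with limma on log2(TPM + 1) it was 0.84, a scale that understates changes of low genes. The direction was the same on all of them.

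**Figure D2:**
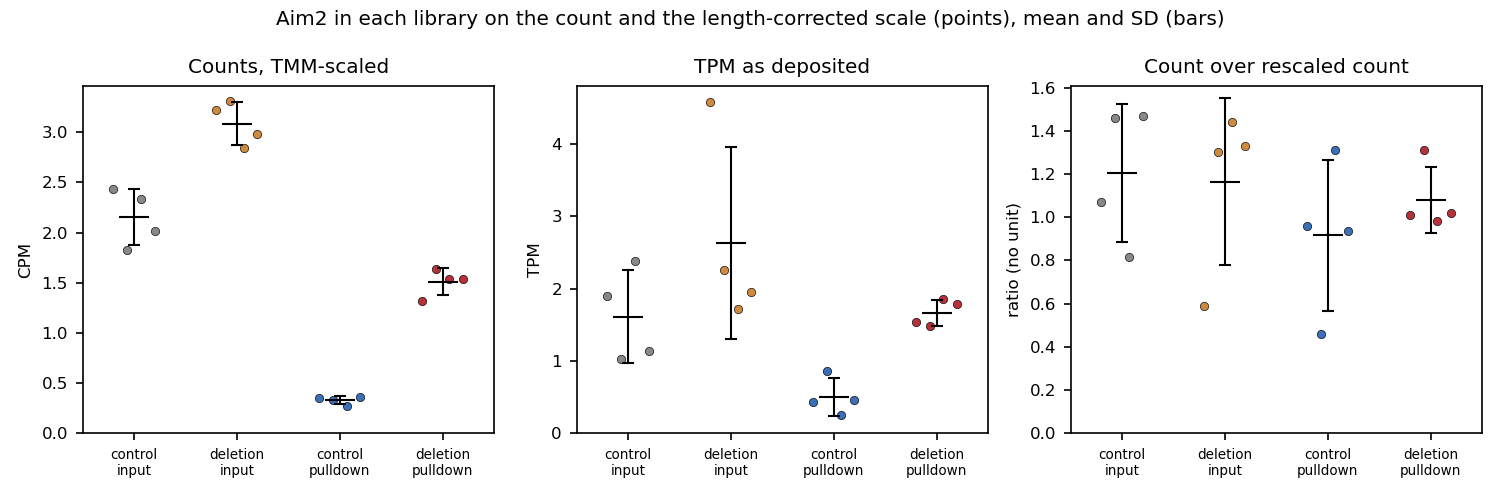
Aim2 in each library as TMM-scaled CPM (left), as TPM (middle) and as the ratio of estimated count to rescaled count (right, no unit), by group; points are libraries and bars the mean and SD of 4. The CPM values cluster by group, while 1 deletion input library stands at 4.58 TPM with a low ratio of 0.59, and 1 control pulldown library at 0.862 TPM with a ratio of 0.461.

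The genes next to Aim2 with enough reads in pulldown, Cadm3 and Ackr1, were not called between genotypes there by edgeR or DESeq2, against 0.641% of all genes tested by edgeR and 7.23% of those with an adjusted p in DESeq2. Cadm3, which shares the overlapped stretch, was 172 ± 34.7 CPM in control and 157 ± 25.2 CPM in deletion pulldown (SD, n = 4 each). Its log2 fold change was -0.12 (SE 0.15), with an edgeR adjusted p of 0.682. Ackr1, an atypical chemokine receptor gene at the other end of Cadm3, was at -0.08 (adjusted p = 0.814). Its annotated span lies almost wholly inside that of Cadm3, so reads of Ackr1 and Cadm3 may not be told apart either. The counts of Cadm3, 10354 to 17718 per pulldown library, were many times those of Aim2, so a small part of its reads given to Aim2 would be a large part of the latter's counts. The part of such reads in the values of Aim2 was not tested.

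Of 27 annotated genes starting within 500 kb of Aim2, 24 had a row in the table, 10 of those had no count in any library, 2 could be tested in pulldown and 6 in input. Aim2 aside, edgeR called none of the tested genes in deletion against control, in either fraction. DESeq2 called 1 in input, Ifi207, of the 4 to which it gave an adjusted p, against 2.25% of all such genes. Most of the silent genes were olfactory receptor genes and pseudogenes. Among the Ifi200 genes outside the 8, Ifi202b, Ifi205, Ifi208, Ifi211, Ifi213 and Ifi214 had at most 17 counts in any library.

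Among the 8 genes, the 4 other Ifi200 genes had pulldown libraries that overlapped between genotypes, while Ifi207, outside the 8, had not, as given further on. Ifi203, the 1 of these 4 with the most counts in input, had 7, 9, 3 and 7 counts in control pulldown and 0, 3, 7 and 9 in deletion pulldown. Mndal had 8.6, 3, 5.71 and 4 against 10.9, 3, 6 and 3 counts.

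Ifi204, often named as a DNA sensor upstream of interferon, had 5.88, 8, 1.11 and 0 counts in control pulldown and 3.42, 2, 0 and 0 in deletion pulldown. Pyhin1 had 5, 0, 3 and 10.1 counts in control pulldown and 2, 2, 0 and 0 in deletion pulldown. Nlrp3 was lower still, with 0, 0, 3 and 3 against 1, 0, 0 and 2 counts. These 5 genes were too low in pulldown for the model across genes. By exact two-sided permutation tests of log2(CPM + 0.05) over 70 assignments, their p ran from 0.171 to 0.857 (0.343 to 0.857 adjusted over the 8 such tests made in all), where the smallest possible p is 0.0286. A difference of a few counts would not have been detectable at this depth.

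Casp1 and Pycard, the effector protease and the adaptor that AIM2 needs, were the only 2 of the other 7 genes that could be tested in pulldown, and neither was called, against 0.641% of all genes. Casp1 had 20, 30, 22 and 33 counts in control pulldown (0.229, 0.32, 0.253 and 0.362 CPM) and 27, 48, 19 and 24 in deletion pulldown (0.319, 0.519, 0.221 and 0.316 CPM), with overlap. Its log2 fold change was 0.25 (SE 0.32, adjusted p = 0.706 in edgeR).

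Pycard had 21, 24, 14 and 3 counts in control pulldown (0.241, 0.256, 0.161 and 0.0329 CPM) and 25, 8, 21 and 13 in deletion pulldown (0.296, 0.0865, 0.244 and 0.171 CPM). The lowest library of each genotype lay well under its group, and the ranges overlapped. The log2 fold change was 0.21 (SE 0.54, adjusted p = 0.861 in edgeR). No unadjusted p of these 2 genes was under 0.05 in edgeR, DESeq2 gave neither an adjusted p, and errors of this size leave room for sizeable differences of Pycard in particular.

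Per length, Aim2 led the 8 genes in deletion pulldown but not in control pulldown. In control pulldown mean TPM was 0.541 for Casp1, 0.503 for Aim2 and 0.342 for Pycard, and these 3 did not differ beyond their spread. In deletion pulldown it was 1.66 for Aim2, 0.647 for Casp1 and 0.407 for Pycard, and every library of Aim2 was above every library of the others. The remaining 5 genes had mean TPM of at most 0.297 in control pulldown and at most 0.128 in deletion pulldown. In both inputs the order began with Aim2 (1.61 in control and 2.63 in deletion), Pycard (0.938 and 1.24) and Casp1 (0.686 and 0.908) and ended with Pyhin1 (0.127 and 0.185) and Nlrp3 (0.0695 and 0.114).

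In whole hypothalamus all 7 other genes could be tested between genotypes, and none was called by edgeR, against 0.231% of all genes. In edgeR 1 of the 7 had an unadjusted p under 0.05, against 14% of all genes, and DESeq2 called none of the 4 to which it gave an adjusted p. Of the 7, 6 had a positive and 1 a negative log2 fold change of deletion over control. Ifi203 had 39.9, 26.3, 31 and 35 counts in control and 51, 87.6, 67 and 41 in deletion input. In CPM the means were 0.572 ± 0.0996 and 1.03 ± 0.292 (SD, n = 4 each), and only the lowest deletion library (0.687) fell inside the control range, just under the highest control library (0.701).

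The log2 fold change of Ifi203 was 0.85 (SE 0.28), which did not pass (edgeR adjusted p = 0.221, unadjusted p = 0.0091). Nlrp3 was at 0.60 (SE 0.59), Ifi204 at 0.33 (SE 0.47), Pyhin1 at 0.31 (SE 0.39), Pycard at 0.30 (SE 0.25) and Casp1 at 0.30 (SE 0.32). Mndal was at -0.55 (SE 0.59). Adjusted p for these 6 ran from 0.637 to 0.804 by the same test. The opposite signs of Mndal and Ifi203 concern genes whose reads may be assigned to either.

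Ifi207, an Ifi200 gene listed under its older symbol AI607873 and singled out here after its values were seen, had the highest log2 fold change among the tested genes of the cluster in input. Control inputs held 48, 22.3, 36 and 22 counts and deletion inputs 70, 79, 67 and 68, without overlap. In CPM this was 0.553 ± 0.212 against 1.2 ± 0.0723 (SD, n = 4 each). The log2 fold change of 1.11 (SE 0.28) did not pass in edgeR, with an adjusted p of 0.138, and passed in DESeq2 (adjusted p = 0.0194). It also passed in edgeR without control input pool 1 (adjusted p = 0.0315) and not without any other single library (adjusted p = 0.0932 to 0.381). In pulldown Ifi207 had 1.07, 0, 0 and 0 counts in control and 2, 10, 12 and 2 in deletion libraries, too few for the model. In CPM this was 0 to 0.0115 against 0.0236 to 0.139, so its genotypes did not overlap in pulldown either, though 2 of the 4 deletion libraries held only 2 counts.

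**Figure D3:**
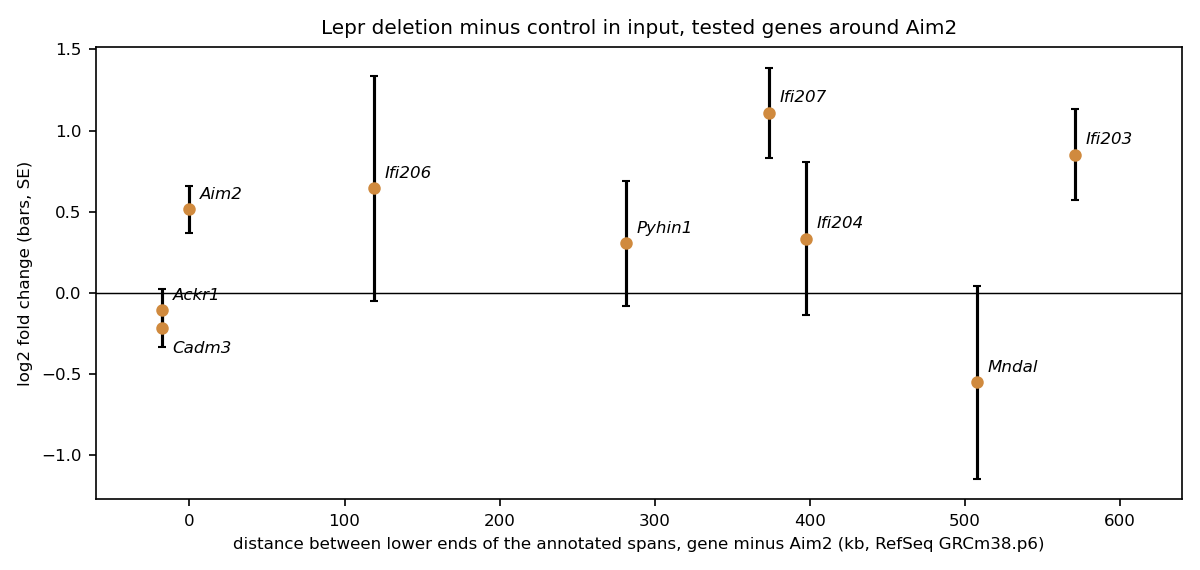
Log2 fold change of deletion over control in input (y axis, bars are SE) for the tested Ifi200 genes, Cadm3 and Ackr1, by the distance in kb between the lower end of each annotated span and that of Aim2 (x axis). Ifi207 at 1.11 and Ifi203 at 0.85 lie highest, Mndal lies at -0.55, and, apart from Aim2, which was not tested, none of the genes shown passed the threshold in edgeR, while Ifi207 passed in DESeq2 (adjusted p = 0.0194).

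Against input, most of the 8 genes were poor in the ribosome pulldown, in both genotypes. In control pools all 5 other genes that passed the filter on low counts were lower in pulldown (Ifi203, Mndal, Pyhin1, Casp1 and Pycard), where 34.6% of all genes were called lower. In deletion pools all 6 that passed were lower (Ifi203, Ifi204, Pyhin1, Casp1, Pycard and Nlrp3), where 32.8% were. Casp1 and Pycard also had enough counts in pulldown alone. The others passed the filter through their input libraries and so had to be lower in pulldown, and the counts support nothing by themselves.

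Ifi203 was at -2.97 (SE 0.36) in control and -4.16 (SE 0.55) in deletion, and Pyhin1 at -2.71 (SE 0.64) and -4.96 (SE 0.64) on the log2 scale. Mndal was at -2.69 (SE 0.48) in control. Adjusted p for these 5 values was at most 0.00296 in edgeR's quasi-likelihood fit. Nothing is read from it, since these 3 genes passed the filter only through input. Ifi204, Nlrp3 and Pyhin1 had few counts in deletion pulldown, so their fitted values there (-5.05, -4.95 and -4.96) depend on the prior count.

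Ratios of summed counts, scaled by the library sizes, give a plainer view of these low genes, with 95% exact intervals that cover counting error only. For Ifi204 input exceeded pulldown 10.2 times in control (5.87 to 18.8) and 36.3 times in deletion (15.1 to 114.0). For Nlrp3 the ratios were 13.0 (5.56 to 37.0) and 36.7 (12.1 to 182.0), from 6 and 3 pulldown counts. The intervals of the genotypes overlapped for both genes. For Pyhin1 the ratios were 6.74 (4.0 to 12.0) and 35.4 (13.4 to 132.0), from 18 and 4 pulldown counts, and these intervals did not overlap. For Ifi203 they were 7.9 (5.16 to 12.5) and 18.6 (11.6 to 31.4), with overlap.

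Mndal in deletion pools, left out by the filter, had 66 counts in input and 23 in pulldown over the 4 pools, a ratio of 4.1 (2.52 to 6.91), and its libraries overlapped between the fractions (exact p = 0.143). For Ifi204 and Nlrp3 in control the exact test gave the smallest p it can, 0.0286 (0.114 adjusted over the 8 exact tests). Ifi207 had 128 input and 1 pulldown count in control, a ratio of 199.0 (35.1 to 7920.0), and 284 and 26 in deletion, a ratio of 15.6 (10.4 to 24.3), without overlap of the intervals and in the opposite order to Pyhin1.

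Among the inflammasome genes Casp1 had the values nearest 0. It was at -1.34 (SE 0.34, adjusted p = 0.00463) in control and at -1.39 (SE 0.32, adjusted p = 0.00176) in deletion in edgeR's quasi-likelihood fit, with pulldown at 0.229 to 0.362 and input at 0.337 to 0.961 CPM in control, where the groups overlapped. Pycard was at -2.43 (SE 0.46) and -2.52 (SE 0.34) and did not overlap between fractions in either genotype, as for 31.2% of all genes in control and 29.8% in deletion that were lower in pulldown without overlap. With limma on log2(TPM + 1) Casp1 did not pass in either genotype (-0.12, adjusted p = 0.345, and -0.22, adjusted p = 0.0876), and Ifi203 in control changed sign (0.055, adjusted p = 0.724), while the median of all genes moved from -0.02 to 0.75 in control and from -0.01 to 0.70 in deletion. Library totals in place of TMM moved those medians to 0.53 and 0.44 and changed no call of these genes.

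**Figure D4:**
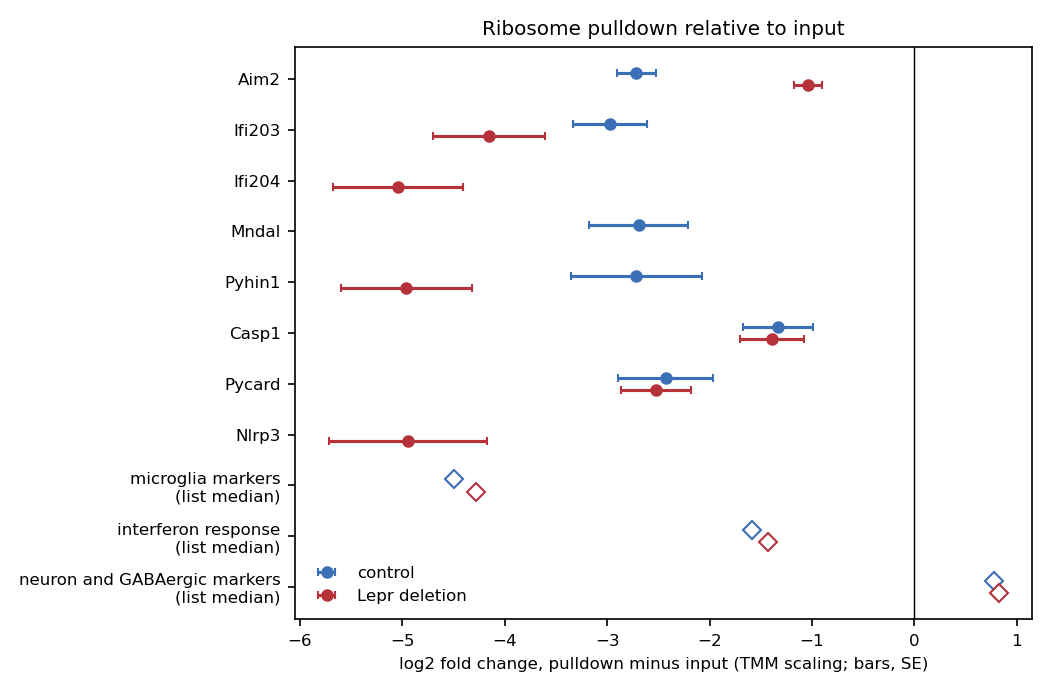
Log2 fold change of pulldown over input (x axis, bars are SE) in control and deletion pools for each gene that passed the filter, with the medians of 3 gene lists as open diamonds. Aim2 moves from -2.72 in control to -1.04 in deletion, Casp1 and Pycard sit at nearly the same value in both, and Ifi203 and Pyhin1 lie further left in deletion. The deletion value of Pyhin1 rests on 4 pulldown counts and depends on the prior count.

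Whether pulldown over input differed between genotypes was tested in one model over all 16 libraries, and edgeR called none of the 7 other genes, against 0.0108% of all genes, and DESeq2 gave none of them an adjusted p. Casp1 (-0.06, SE 0.47) and Pycard (-0.10, SE 0.60) were near 0. Pyhin1 was at -2.26 (SE 1.05, unadjusted p = 0.0453, adjusted p = 0.547), opposite in sign to Aim2, as were Ifi204 (-1.74, SE 1.18), Nlrp3 (-1.40, SE 1.44) and Ifi203 (-1.19, SE 0.72). Mndal was at 0.69 (SE 0.93). The values of Pyhin1, Ifi204 and Nlrp3 depend on the prior count, since these genes had few counts in pulldown. Ifi207, outside the 8, had the sign of Aim2 at 2.99 (SE 0.97, unadjusted p = 0.00631, adjusted p = 0.421 in edgeR), a fitted value that depends on the prior count because control pulldown held 1 count in all. Adjusted p for these 7 genes ran from 0.547 to 0.984 in edgeR's quasi-likelihood fit, and errors of about 1 on the log2 scale leave room for large differences.

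The wider inflammasome pathway was described from lists of genes chosen with earlier results of these data known. Of 23 other sensors and regulators, 14 could be tested in control pools, and 9 were lower and 1 higher in pulldown, with a median of -0.97 against -0.02 over all genes. In that comparison 34.6% of all genes were called lower and 64.8% in one direction or the other. Of the sensors and regulators, 11 had enough counts in pulldown alone. Genes that passed the filter only through input had to be lower in pulldown, here and in the lists below. The counts of genes called therefore support nothing by themselves. P2rx7, the ATP-gated channel that triggers NLRP3, was at -4.68, Casp8 at -3.93, Txnip at -3.89 and Nek7, a kinase that NLRP3 needs, at -1.22. Panx1, a membrane channel gene, was the 1 that was higher (0.69), named for being the exception.

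Of 15 genes for cytokines, their receptors and pore proteins, 11 could be tested, and 9 were lower and 1 higher in control pulldown (median -1.67), beside the same shares of all genes. In pulldown alone 8 had enough counts, and Il1a was not among them. The cytokine genes Il33, Il1a and Il18 were at -4.65, -5.63 and -1.67 and the receptor subunit gene Il1rap at -1.11. Il18, whose product caspase-1 cleaves, was at 1.78 CPM in control and 1.69 CPM in deletion pulldown, and Il1b was at most 0.0766 CPM in any group mean. Ninj1, whose product ruptures the membrane of dying cells, was the 1 that was higher (0.38).

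Of 16 genes of cytosolic nucleic acid sensing, 10 were lower and 1 higher in control pulldown (median -0.97), with Tlr3 at -3.75, Tlr7 at -3.38, Ifih1 at -2.14 and Ddx58 at -1.30. In pulldown alone 12 had enough counts, and Tlr7 was not among them. Of 23 interferon-response genes 21 could be tested, and 19 were lower and 1 higher (median -1.59), with Xaf1 at -3.96, Ifitm3 at -3.71, Irf8 at -2.67 and Gbp7 at -2.62. Of these genes, 20 had enough counts in pulldown alone.

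Between genotypes edgeR called no gene of these 4 lists, among 51 tested in pulldown and 66 tested in input. An unadjusted p under 0.05 was reached by 9 in pulldown, where 19.8% of all genes reached it, and by 4 in input, where 14% did. DESeq2 called 2 in pulldown, where it called 7.23% of all genes, Ifitm3 (adjusted p = 0.00629) and the guanylate-binding protein gene Gbp7 (adjusted p = 0.0331), and none in input. In pulldown the interferon-response genes had 16 positive and 4 negative log2 fold changes, with a median of 0.29 against -0.01 over all genes, and the sensors and regulators 8 and 3, with a median of 0.12. The genes of nucleic acid sensing had 9 and 3 (median 0.06), and those for cytokines, receptors and pore proteins 4 and 4 (median -0.01). In input the medians of the 4 lists, in this order, were 0.07, 0.14, 0.03 and 0.01. Among the tested genes of these lists, Ifitm3, an interferon-induced membrane protein gene, had the highest log2 fold change in pulldown, 1.19 (edgeR adjusted p = 0.082). Aim2, at 2.20, was picked for its pattern in these same libraries, so nothing is read from its place above them.

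Cell-type markers were read beside these results. All 15 microglia markers were lower in pulldown in both genotypes (medians -4.49 and -4.28), where 34.6% of all genes were called lower in control and 32.8% in deletion. Between genotypes edgeR called none of the 15. An unadjusted p under 0.05 was reached by 2 in pulldown and 0 in input, against 19.8% and 14% of all genes. DESeq2 called none either, and gave 4 an adjusted p in pulldown and all 15 in input. Of the 15, 13 had enough counts in pulldown alone, and the others had to be lower there. The summed level of the 15 was 95.7 to 116 CPM in control input, 91.9 to 106 in deletion input, 13.4 to 13.8 in control pulldown and 11.2 to 12.5 in deletion pulldown, lower in deletion pulldown without overlap. Over 14 of them, a sum added after seeing the data, the ranges were 82.0 to 96.2, 79.6 to 89.5, 3.76 to 5.09 and 3.31 to 4.49 CPM, and those of the pulldowns overlapped. None of the 15 was at 0 in all 4 libraries of a group. The part of microglial RNA in the values of Aim2 was not tested.

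Of 14 markers of infiltrating and border immune cells, all 9 that could be tested in input had positive log2 fold changes of deletion over control (median 1.01). In edgeR none of the 9 was called in input, against 0.231% of all genes. An unadjusted p under 0.05 was reached by 4, where 14% of all genes reached it. DESeq2 gave 7 an adjusted p and called 3, Mrc1, Lyve1 and Cd74, against 2.25% of all such genes. Mrc1, a mannose receptor gene and marker of border macrophages, was at 1.02 (adjusted p = 0.072 in edgeR and 0.000735 in DESeq2). The summed level of the 14 markers was 4.72 to 8.59 CPM in control and 7.9 to 15 CPM in deletion input, with overlap, and 0.351 to 0.993 and 0.778 to 1.25 CPM in the pulldowns. Their part in the input values of Aim2, Ifi203 and Ifi207 was not tested.

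Of 7 tested vascular markers, 6 in pulldown and 7 in input had positive log2 fold changes of deletion over control, with medians of 0.57 and 0.50. All 6 astrocyte markers were positive in pulldown (median 0.26), and 3 were positive and 3 negative in input. In pulldown edgeR called none of either list, against 0.641% of all genes. An unadjusted p under 0.05 was reached by 3 vascular and 2 astrocyte genes, where 19.8% of all genes reached it. DESeq2 gave 4 vascular and 6 astrocyte genes an adjusted p there. It called Flt1 and Gja1 higher, where it called 7.23% of all such genes. In input edgeR called 1, where it called 0.231% of all genes. This was the astrocyte gap junction gene Gja1, which was lower in deletion (-0.33, adjusted p = 0.00649). An unadjusted p under 0.05 was reached there by 3 vascular and 2 astrocyte genes, and by 14% of all genes. DESeq2 gave 7 vascular and 6 astrocyte genes an adjusted p in input. It called Gja1 lower there too and Gfap higher (0.25, adjusted p = 0.0432), where it called 2.25% of all such genes. For the difference between fractions DESeq2 called Gja1 (0.92, adjusted p = 4.39e-05) and edgeR did not (0.91, adjusted p = 0.112). Summed levels in pulldown were 3.68 to 6.38 CPM in control and 5.06 to 13.7 CPM in deletion libraries for vascular markers, and 23.3 to 27.3 and 26.4 to 34.8 CPM for astrocyte markers. Of 8 oligodendrocyte markers, 7 were positive and 1 negative in pulldown (median 0.14), and neither edgeR nor DESeq2 called any there. Of 8 neuron and GABAergic markers, 3 were positive and 5 negative in pulldown (median -0.03). DESeq2 called 2 of these 8, where it called 7.23% of all genes, and edgeR none. The part of these cell types in the values of Aim2 was not tested.

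The genes whose levels ran most like Aim2 over the 16 libraries were, by Pearson's r of log2(CPM + 0.05) among 13669 genes with a mean of at least 0.3 CPM, Cbx5 (0.955), Rbm12b1 (0.932), Zzz3 (0.931), Cd2ap (0.929) and Smg6 (0.929). Cbx5 encodes a heterochromatin protein, and Smg6 an endonuclease of nonsense-mediated decay. All 5 had the group order of Aim2, lowest in control pulldown and highest in deletion input, but with far smaller steps. Cbx5 was 517 ± 9.93 CPM in control pulldown, 593 ± 22.6 in deletion pulldown, 646 ± 24.4 in control input and 690 ± 9.72 in deletion input (SD, n = 4 each). Their log2 fold changes of deletion over control in pulldown were between 0.21 and 0.45, against 2.20 for Aim2. The other 7 genes had r of 0.528 (Mndal) to 0.744 (Pycard) with Aim2. The 16 points share 4 groups, so these values mostly describe the order of group means.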

How the data were processed

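Estimated counts per gene, length-rescaled counts and TPM were deposited by the authors as one table each. Per the submitters' processing notes, Salmon 1.10.1, DESeq2 1.38.3 and GRCm38 were used, and the strand setting is not given in the sources used here. The authors' deposited table of comparisons gives log2 fold changes and adjusted p-values from the same libraries. The members and all gene lists were chosen with earlier results of these data known. Counts, made whole by rounding, were tested over all genes with edgeR 4.0.16 (quasi-likelihood, TMM, filterByExpr with a minimum count of 10 and total of 15, Benjamini-Hochberg threshold 0.05), within the groups compared, or over 16 samples for the genotype by fraction term. The SE of a log2 fold change is its size divided by the square root of edgeR's F statistic. For low genes it depends on the prior count, as the fold change does. Genes left out by the filter had exact permutation tests. Alternatives used DESeq2 1.42.0, limma 3.58.1 on log2(TPM + 1) or log2(TPM + 0.1), other scalings, filters and left-out libraries. The analysis was tested on simulated data. Input and pulldown of a pool came from one lysate, which pairs them. Same-numbered libraries correlated at r = 0.00686 to 0.203 after group means were removed, and 6 of 8 correlated best with their own number. No pair of replicates agreed within sampling noise (chi-square per degree of freedom 8.16 to 50.0 over 24 pairs). Most genes were named by a fixed rule: the 8 members, up to 4 called genes per list with the smallest p, genes within 500 kb of Aim2 by count, and the 5 most like it. Others were named outside this rule, such as Ifi207 and Panx1, which were named after their values were seen. 45143 of 45706 gene IDs matched a current symbol, and sequences are from RefSeq, GRCm38.p6. DESeq2 leaves the adjusted p of many low genes undefined, and such genes count neither as called nor as lost. 1 marker gene is not reported by name here.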

Additional observations from a re-analysis of the deposited data

Results flagged for a closer look

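The adaptor gene Pycard had 1 library well below the others of its group. In control input, pool 2 was at 0.524 CPM, while the other 3 libraries were at 1.0 to 1.1 CPM. The gap to the nearest of them was 0.833 of the group's whole range, above the 95% critical value of Dixon's test for 4 samples. It was the only one of 32 combinations of gene and group that passed, and chance alone is expected to mark about 1 in 20. Pool 2 also had the lowest control input values of Aim2, Casp1, Ifi203, Nlrp3 and Pyhin1. The cause was not tested.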

How the results depend on the processing

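Among the 7 genes other than Aim2, 530 of 537 recomputed log2 fold changes kept their direction, where one was called, and their side of the threshold. The exceptions were in pulldown over input. Ifi203 in control turned to 0.055 with limma on log2(TPM + 1) and did not pass with rescaled counts (-0.55) or log2(TPM + 0.1) (-0.09), and Casp1 did not pass on either TPM scale in control (-0.12, -0.24) or deletion (-0.22, -0.46). The number of these genes called, 5 in control and 6 in deletion, was 3 in control with rescaled counts and on both TPM scales, and 5 to 6 and 6 to 7 when single libraries were left out. It was 0 in the other 3 comparisons under every alternative that gave these genes an adjusted p, single libraries left out included (0 to 0). A minimum mean of 1 CPM removes all 7 genes and gave no value, and DESeq2 gave none of them an adjusted p between genotypes in pulldown or for the difference between fractions, and 4 of them one in input. The log2 fold change of Aim2 ran from 0.84 to 2.29 in pulldown and from 0.44 to 0.64 in input over 19 alternatives each, and from 2.13 to 2.25 in pulldown with single libraries left out. Its difference between fractions, 1.67 in the main fit, ran from 0.39 to 1.73 over 27 alternatives, and 3 of these gave at most 1.08. For pulldown over input Aim2 ran from -2.79 to -0.78 in control and from -1.575 to -0.39 in deletion, over 20 alternatives each.

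Counts over all genes moved far more. In pulldown 108 genes were called, against 266 with no filter, 1050 with DESeq2, 508 in one fit of all 16 samples, 16 with rescaled counts, 30 on log2(TPM + 1), 22 on log2(TPM + 0.1), 3363 without pools 1 and 5 (chosen after seeing the data) and 19 to 1262 with single libraries left out. In input 41 were called, against 108 with library totals, 261 with no filter, 359 with DESeq2, 11 with rescaled counts, 22 and 20 on the TPM scales, 1957 without pools 1 and 5 and 19 to 402 with single libraries left out. For the difference between fractions 2 were called, against 4 with DESeq2's size factors in edgeR (RLE), 4 with library totals, 6 with no filter, 28 with DESeq2, 0 with rescaled counts, 6 on log2(TPM + 1), 87 without pools 1 and 5 and 1 to 5 with single libraries left out. Without the single library of pool 1, 556 (pulldown) and 402 (input) genes were called, and without that of pool 5, 1262 and 337. Pulldown over input gave 10812 to 11613 genes in control and 10095 to 10753 in deletion with single libraries left out. The replicate block, by pool, gave 4 genes for the difference between fractions and changed no call of the 7 genes. The cause of these shifts was not tested. Depth limits Ifi204, Pyhin1, Nlrp3, Mndal and Ifi203, which had at most 11 counts in any pulldown library.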
